A study of Mus musculus with 14 samples.

Results

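This account follows 8 myeloid genes through mouse B-cell development with and without Pax5. They are Csf1r, Csf3r and Csf2ra, which encode receptor chains for the colony-stimulating factors, Fcer1g and Tyrobp, which encode signalling adaptors of myeloid and NK cells, Lyz2, which encodes lysozyme, and the transcription factor genes Cebpa and Cebpb. Every probe set annotated with 1 of these symbols was taken, which gave 12 of the 45101 probe sets, and 8 of the 18193 genes measured. Where a gene has several probe sets, the one that is brightest on average over the 14 arrays leads. All 8 genes were found. Transcripts were measured on 14 Affymetrix arrays in sorted bone marrow cells of C57Bl6 mice aged 8 to 12 weeks. Sorted populations with 2 arrays each came from wild type mice without a transplant, namely Ly6D- and Ly6D+ CLP (common lymphoid progenitors), ProB and PreB. The other groups, with 3 arrays each, came from wild type (WT engrafted) or Pax5-deficient (Pax5KO engrafted) fetal liver of day 15 embryos. Both kinds of donor carried a λ5 reporter (λ5 is part of the pre-B-cell receptor's surrogate light chain). Their cells were put into sublethally irradiated wild type hosts, and marrow cells positive for B220 and the reporter were sorted after 4 weeks. The gates used for the untransplanted populations and the deleted part of Pax5 are not given in the sources used here. The arrays are labelled biological replicates, and whether animals were pooled is not said, so the p-values measure the spread between these arrays.

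The colony-stimulating factors drive growth and survival of myeloid cells. The receptors of M-CSF and G-CSF, encoded by Csf1r and Csf3r, signal on their own, while the GM-CSF receptor alpha chain encoded by Csf2ra needs the shared beta chain encoded by Csf2rb. The adaptors FcRγ (Fcer1g) and DAP12 (Tyrobp) have no ligand of their own: they sit beside Fc, TREM and lectin-like receptors and pass the signal to the kinase Syk through ITAM motifs. The C/EBP factors are master regulators of granulocytes and monocytes, Pax5 is the factor that holds B progenitors to the B lineage, and Csf1r is a textbook example of a gene that Pax5 represses.

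The promoters of 4 of these genes are shown because 2 of the genes differed between the engrafted groups and the other 2 hold letters of a myeloid factor's motif. The windows are the 250 bases before the gene start in RefSeq's GRCm38.p6 table, read along the gene's strand. Capitals mark the letters GAGGAA, the core bound by PU.1, a factor that myeloid and B cells share. Fcer1g lies at chr1:171234350-171234599 on the minus strand, Lyz2 at chr10:117282273-117282522 on the minus strand, Csf3r at chr4:126024409-126024658 on the plus strand and Csf2ra at chr19:61228419-61228668 on the minus strand.
Fcer1g: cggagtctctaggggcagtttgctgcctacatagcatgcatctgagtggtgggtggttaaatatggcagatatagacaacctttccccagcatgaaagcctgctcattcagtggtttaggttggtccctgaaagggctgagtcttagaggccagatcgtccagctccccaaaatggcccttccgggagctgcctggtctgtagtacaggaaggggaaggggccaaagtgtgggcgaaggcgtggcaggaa
Lyz2: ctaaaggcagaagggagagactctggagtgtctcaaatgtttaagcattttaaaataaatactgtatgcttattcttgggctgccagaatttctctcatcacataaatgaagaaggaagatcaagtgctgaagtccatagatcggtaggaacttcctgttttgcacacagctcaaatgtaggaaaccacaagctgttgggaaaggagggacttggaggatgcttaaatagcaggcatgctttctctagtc
Csf3r: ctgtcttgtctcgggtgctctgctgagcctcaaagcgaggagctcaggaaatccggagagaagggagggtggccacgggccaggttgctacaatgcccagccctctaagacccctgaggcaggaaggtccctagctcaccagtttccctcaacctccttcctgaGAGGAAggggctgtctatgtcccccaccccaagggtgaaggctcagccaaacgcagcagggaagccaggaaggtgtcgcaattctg
Csf2ra: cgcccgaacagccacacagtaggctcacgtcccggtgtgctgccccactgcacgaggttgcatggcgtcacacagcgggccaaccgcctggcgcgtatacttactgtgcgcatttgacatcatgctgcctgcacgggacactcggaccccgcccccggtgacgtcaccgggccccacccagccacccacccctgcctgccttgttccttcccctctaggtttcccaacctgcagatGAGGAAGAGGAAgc

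Of the 8 genes, 6 had a window in that table, and Csf1r and Tyrobp did not. The Csf2ra window held GAGGAA back to back, at bases 14 to 9 and 8 to 3 before the start, and the Csf3r window held it at bases 86 to 81. The Fcer1g, Lyz2, Cebpa and Cebpb windows did not hold it on either strand. GAGGAA was present on 1 strand or the other in 23.3% of 32851 such windows. The C/EBP letters TTGCNNAA, present in 9.56% of them, were in none of the 6 windows on either strand, which says only that these letters are not there.

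All values below are the deposited log2 signals. They run from a shared lowest value of 2.32, at which 31.3% to 36.8% of an array's probe sets lay, up to 16.1. A group with all arrays within 0.5 of that lowest value is called at the floor. A difference from such a group is a lower bound, and between a pair of such groups none is printed. A gene is called different at an adjusted p under 0.05 in limma, with all 14 arrays in 1 fit and adjustment over all genes. Overlap between groups is described from the arrays with no test, and the share of all genes that did not overlap was not counted. The cells are bulk samples, so fewer cells of a type and less RNA per cell cannot be told apart. The Pax5 probe set read 6.76, 6.18 and 6.60 in WT engrafted cells and 7.95, 7.92 and 7.57 in Pax5KO engrafted cells. It does not show the loss of Pax5 and cannot check the labels without knowing the deleted part, so the directions between these groups rest on the labels. Among markers of the labelled stages, 7 of 9 pre-B markers fell and 5 of 7 CLP markers rose in Pax5KO engrafted against WT engrafted cells. Of 9 pro-B markers 1 rose and 2 fell. Over all genes 3.64% were called higher and 2.29% lower. The lists were chosen with earlier results of these data known, so these counts do not check the labels.

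Some features of the arrays touch the results. First, both PreB arrays carried transcripts known from other cells, and their source was not tested. S100a8, a neutrophil protein gene, read 12.0 and 12.8, and the NK and cytotoxic T cell protease gene Gzma read 10.3 and 10.9. The PreB arrays differed in the megakaryocyte markers Pf4 (2.32 on array 2 and 10.3 on array 3) and Ppbp (2.32 and 8.81). Second, array 2 of the Ly6D- CLP read 10.6 for S100a8 and array 1 read 2.39. Last, Xist, which marks female cells, was above 8 on all Pax5KO engrafted arrays, WT engrafted array 3 and both ProB arrays, and at most 2.73 on the other arrays.

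Across the 6 groups, Csf1r, Csf2ra, Fcer1g, Tyrobp and Cebpb had their lowest mean in ProB, and Lyz2 in WT engrafted cells. The means of these 6 genes were higher in both CLP groups and in PreB than in ProB. In the limma F test over the groups, 6 of the 8 differed, against 21.4% of all genes: Cebpb (adjusted p = 0.000164), Fcer1g (0.00137), Lyz2 (0.00204), Csf3r (0.00265), Tyrobp (0.0258) and Csf1r (0.0444). Csf2ra (limma adjusted p = 0.120) and Cebpa (0.541) did not pass. Without the PreB arrays, 4 of the 8 passed, against 11.3% of all genes. Those were Cebpb, Fcer1g, Csf3r and Lyz2, with limma adjusted p from 0.000115 to 0.0155. Tyrobp (0.0940), Csf1r (0.205) and Csf2ra (0.190) did not pass then.

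**Figure D1:**
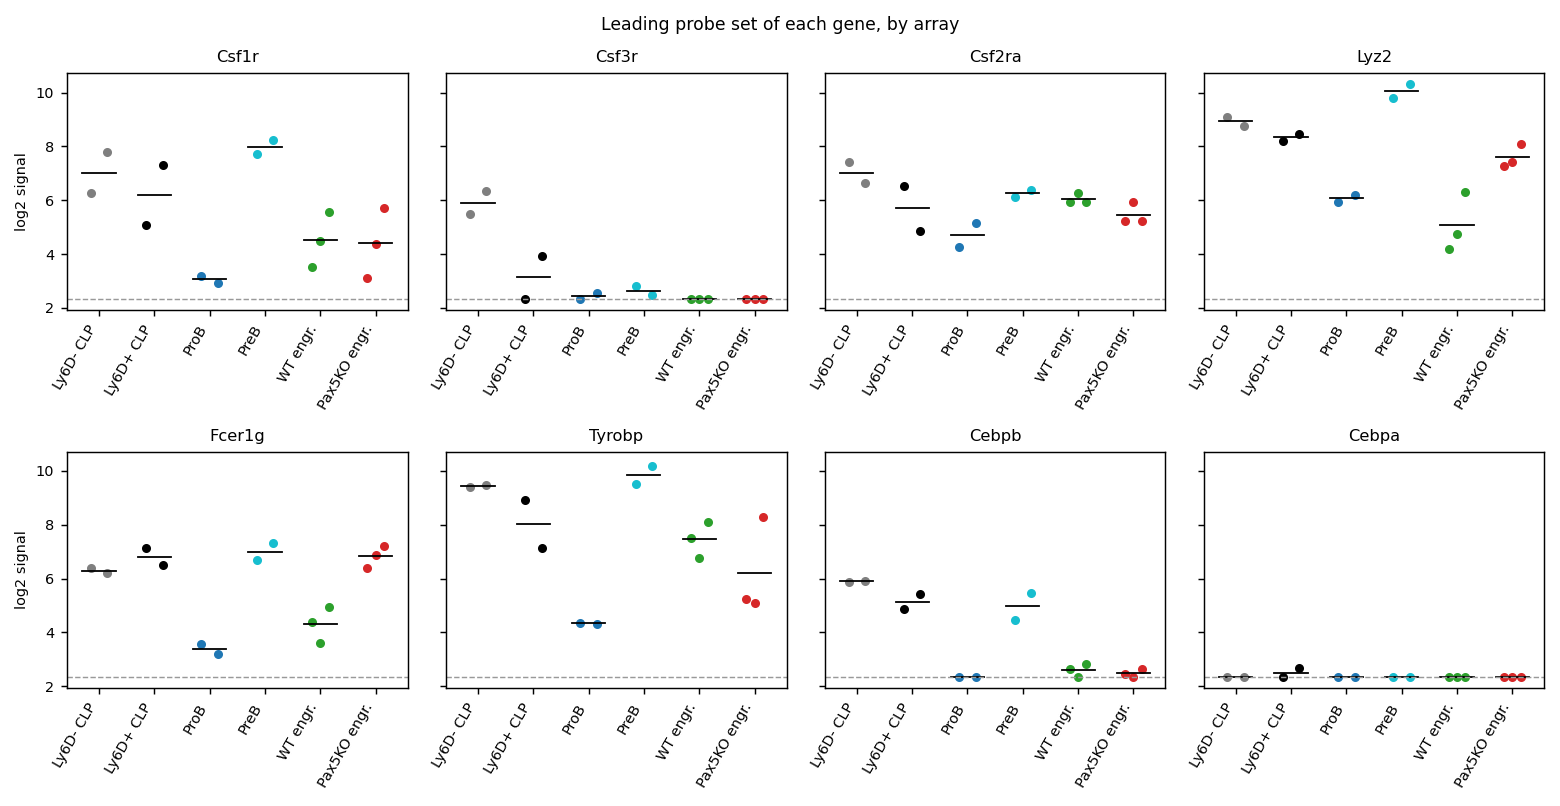
log2 signal of the leading probe set of each of the 8 genes on every array, by group; points are arrays, black lines group means and the dashed line the lowest value of the table. Csf1r, Fcer1g, Tyrobp and Lyz2 peaked in PreB, Csf3r and Cebpb in Ly6D- CLP, and Cebpa lay at the floor in every group.

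Csf1r, the M-CSF receptor of monocytes and macrophages, was high in CLP and PreB and low in ProB. Its leading probe set read 6.25 and 7.78 for Ly6D- CLP, 5.07 and 7.31 for Ly6D+ CLP, 3.20 and 2.94 for ProB, and 7.71 and 8.24 for PreB. It read 3.51, 4.50 and 5.57 in WT engrafted cells and 3.10, 4.38 and 5.72 in Pax5KO engrafted cells. The engrafted groups covered nearly the same range, each with its array 3 highest. In the order of group means PreB came first, then Ly6D- CLP, Ly6D+ CLP, WT engrafted, Pax5KO engrafted and ProB, and the arrays of each pair of neighbours overlapped.

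The 2 dimmer probe sets of Csf1r did not repeat the whole pattern. The second set read 3.78 and 5.27 in PreB and 2.84 on both ProB arrays. The other set read 3.08 and 3.16 in PreB and 3.08 and 3.25 in ProB, so it did not separate them. Its value of 3.08 recurred on arrays of Ly6D- CLP and of both engrafted groups, so this set may have had no signal to compare there. Neither set was called in any of the 6 comparisons. Their PreB minus ProB differences were 1.69 (limma adjusted p = 0.305) and -0.05 (1).

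Csf3r, the G-CSF receptor of the granulocyte lineage, was a transcript of the earliest cells. Ly6D- CLP arrays read 5.50 and 6.33, against 2.32 and 3.94 for Ly6D+ CLP. ProB and PreB were at the floor, at 2.32 to 2.81, and all 6 engrafted arrays stood at the lowest value. The groups Ly6D- and Ly6D+ CLP did not overlap.

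Csf2ra, the alpha chain that binds GM-CSF, was above the floor in every group. On its leading probe set Ly6D- CLP read 7.40 and 6.63, Ly6D+ CLP 6.55 and 4.85, ProB 4.27 and 5.16, and PreB 6.13 and 6.37. It read 5.92, 6.26 and 5.94 in WT engrafted and 5.22, 5.94 and 5.23 in Pax5KO engrafted cells. ProB was lowest, and WT and Pax5KO engrafted cells overlapped. A second probe set set PreB apart: it read 5.97 and 5.47 there and at most 3.75 on every other array. On this set the engrafted groups did not overlap, at 3.21, 3.44 and 3.23 in WT engrafted and 2.52, 2.89 and 2.52 in Pax5KO engrafted cells. The difference of -0.65 was not called (limma adjusted p = 0.521).

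**Figure D2:**
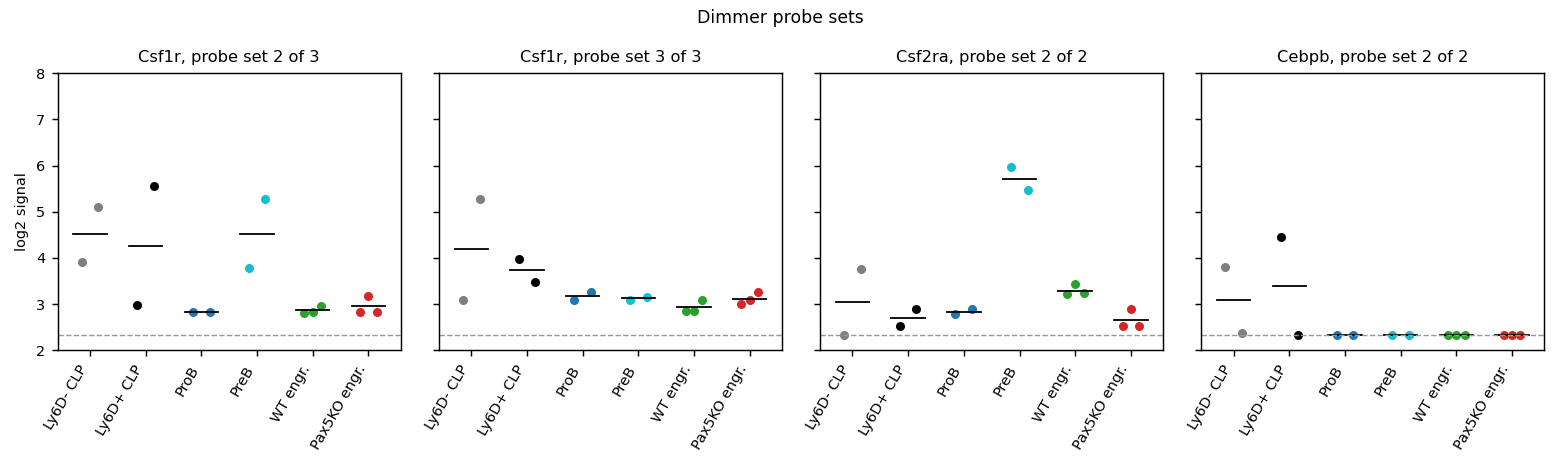
log2 signal of the dimmer probe sets of Csf1r, Csf2ra and Cebpb on every array, by group; points are arrays, black lines group means and the dashed line the lowest value of the table. The second Csf2ra set is highest in PreB, at 5.97 and 5.47, and the second Cebpb set left the floor on 1 array of each CLP group.

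Fcer1g, the FcRγ chain that carries Fc receptors, was 1 of 2 members whose engrafted groups did not overlap on the leading probe set while both were above the floor. It read 4.40, 3.59 and 4.94 in WT engrafted cells and 6.40, 6.88 and 7.21 in Pax5KO engrafted cells. Ly6D- CLP read 6.40 and 6.19, Ly6D+ CLP 7.13 and 6.49, ProB 3.56 and 3.19, and PreB 6.67 and 7.32. The Pax5KO engrafted arrays thus lay within the range of the CLP and PreB arrays, from 6.19 to 7.32, while WT engrafted and ProB arrays were all below it. PreB, Pax5KO engrafted and Ly6D+ CLP, the highest in the order of means, overlapped, and the lower neighbours did not.

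Tyrobp, which encodes DAP12, the adaptor of TREM and activating NK receptors, did not follow Fcer1g between the engrafted groups. Like Fcer1g it had its highest mean in PreB and its lowest in ProB. Ly6D- CLP read 9.42 and 9.49, Ly6D+ CLP 8.92 and 7.15, ProB 4.35 and 4.32, and PreB 9.53 and 10.19. WT engrafted arrays read 7.51, 6.75 and 8.11, and Pax5KO engrafted arrays 5.24, 5.10 and 8.28. Arrays 1 and 2 of the Pax5KO engrafted cells were thus below all WT engrafted arrays and the remaining one, array 3, was above them. The 2 engrafted groups overlapped.

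Lyz2, the lysozyme of macrophages and granulocytes, was above the floor on every array. Its values were 9.10 and 8.76 (Ly6D- CLP), 8.22 and 8.47 (Ly6D+ CLP), 5.94 and 6.19 (ProB), and 9.80 and 10.32 (PreB). WT engrafted arrays read 4.17, 4.75 and 6.30, and Pax5KO engrafted arrays 7.29, 7.40 and 8.10. The engrafted groups did not overlap, and WT engrafted overlapped ProB at the bottom of the order. The leading probe set of the near-identical gene Lyz1 read 6.61, 7.00 and 8.52 in WT engrafted and 9.43, 9.39 and 10.2 in Pax5KO engrafted cells. The dimmest Lyz1 probe set did not show this. Its means were 2.32 in WT engrafted and 2.35 in Pax5KO engrafted cells, and 2.32 in ProB and PreB. The 2 genes share much of their sequence, so signal of 1 on probes of the other cannot be told apart here.

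Cebpb, a C/EBP factor of macrophages and of emergency granulocyte production, was measurable in CLP and PreB. Ly6D- CLP read 5.89 and 5.92, Ly6D+ CLP 4.85 and 5.44, and PreB 4.46 and 5.47. Both ProB arrays stood at the lowest value of 2.32, WT engrafted arrays read 2.65, 2.32 and 2.83, and Pax5KO engrafted arrays 2.44, 2.32 and 2.65. The CLP and PreB arrays were therefore all above the ProB and engrafted arrays. On its second probe set Ly6D- CLP read 3.79 and 2.37 and Ly6D+ CLP 4.45 and 2.32, and the set was at the lowest value elsewhere.

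Cebpa, the C/EBP factor that starts the granulocyte and monocyte fate, was at the floor in all 6 groups. Its highest value was 2.66, on 1 array of Ly6D+ CLP. Its 1 probe set gives no level to compare, and a floor value does not show that the transcript is absent.

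The main comparison asked what differs in B-lineage marrow cells when the donor lacked Pax5. Fcer1g rose 5.72-fold in Pax5KO engrafted over WT engrafted cells, a log2 difference of 2.52 (SE 0.37, limma adjusted p = 0.00487). Lyz2 rose 5.75-fold, by 2.52 (SE 0.49, limma adjusted p = 0.0179). Both were higher on 3 of 3 Pax5KO engrafted arrays than on any WT engrafted array. So 2 of the 8 genes were called higher and 0 lower, where 3.64% of all genes were called higher, 2.29% lower and 5.94% in either direction. The other measurable members did not pass: Tyrobp differed by -1.25 (SE 0.85, limma adjusted p = 0.689), Csf2ra by -0.58 (0.743), Csf1r by -0.12 (1) and Cebpb by -0.13 (1), a lower bound in size since Pax5KO engrafted cells were at the floor. Csf3r and Cebpa were at the floor in both groups. The median over the 8 was -0.06 and over all genes 0.

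The call of Fcer1g was kept with any single engrafted array left out (limma adjusted p from 0.00418 to 0.0222). The call of Lyz2 was lost without Pax5KO engrafted array 2 (2.62, limma adjusted p = 0.0523) or 3 (2.27, 0.0605) and without WT engrafted array 1 (2.07, 0.0528) or 2 (2.36, 0.0680). Xist was high on all 3 Pax5KO engrafted arrays and on 1 of 3 WT engrafted arrays. With a term for it, which sets the Pax5KO engrafted mean against WT engrafted array 3, Fcer1g differed by 1.88 (limma adjusted p = 0.0675) and Lyz2 by 1.29 (SE 0.38, 0.134). Fitted with the engrafted groups alone, neither passed (limma adjusted p = 0.0710 and 0.162). Of the 8 genes, 5 (Csf1r, Fcer1g, Tyrobp, Lyz2 and Cebpb) were highest on array 3 in both engrafted groups. RNA quality also differed between these arrays. The Gapdh control signal near the end of the transcript exceeded that near its start by 5.79 and 5.44 on Pax5KO and WT engrafted array 3, and by 2.61 to 3.90 on the other engrafted arrays. The same measure for actin was 3.16, 3.14 and 4.57 on the Pax5KO engrafted arrays and 2.51, 2.56 and 3.47 on the WT engrafted arrays. On both controls each Pax5KO engrafted array was above the WT engrafted array of the same number, and the part of RNA quality in the differences was not tested. Without array 3 of both groups Fcer1g differed by 2.64 (limma adjusted p = 0.0138), Lyz2 by 2.89 (0.00187) and Tyrobp by -1.96 (0.135).

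Markers of other myeloid cells were not called alongside Fcer1g and Lyz2. In limma 0 of 11 granulocyte and monocyte markers and 0 of 8 macrophage markers passed between the engrafted groups, and 1 and 0 had an unadjusted p under 0.05. Their median differences were -0.14 and -0.29. The log2 of the summed signal of the 11 ranged from 8.05 to 8.62 in Pax5KO engrafted and from 8.01 to 10.1 in WT engrafted cells. Mpo, the peroxidase of granulocyte precursors, read 4.31, 7.91 and 9.39 in WT engrafted and 7.99, 7.51 and 7.99 in Pax5KO engrafted cells. S100a8 read 7.32, 7.27 and 8.25 in WT engrafted and 5.05, 4.59 and 6.25 in Pax5KO engrafted cells. The integrin gene Itgam was at the floor in all groups, PreB included, where S100a8 was high, and the neutrophil elastase gene Elane read 4.11 on WT engrafted array 3 and at most 2.59 on every other array. Mast cells and basophils also carry FcRγ. Of 7 measured markers of these cells, 3 fell in Pax5KO engrafted cells: Ms4a2, the beta chain of the IgE receptor, by 2.82 (limma adjusted p = 0.00210), Cpa3, a mast cell protease, by at least 2.12 (0.00462), and Hdc, which makes histamine, by 1.88 (0.000554). Mcpt8, the brightest of the 7 in both engrafted groups, was not called. It ranged from 7.07 to 8.82 in WT engrafted and from 5.85 to 6.91 in Pax5KO engrafted cells. The ProB arrays read 2.52 and 3.69 for it. Among 7 NK markers 1 rose, the receptor chain gene Klrd1, by 3.33 (limma adjusted p = 0.00137). The log2 of the markers' summed signal ranged from 7.14 to 7.70 in Pax5KO engrafted and from 5.29 to 5.58 in WT engrafted cells. Klrd1 and Nkg7 were the highest of these markers in Pax5KO engrafted cells, with means of 6.54 and 5.33. Ncr1, Gzmb, Prf1 and Eomes stood at 2.32 on every Pax5KO engrafted array, and Gzma had a mean of 2.55. Klrd1 and Nkg7 were also high in CLP, with means of 7.12 and 8.76 in Ly6D- CLP and 7.26 and 8.74 in Ly6D+ CLP. The part of NK or other cells in the rise of Fcer1g was not tested.

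**Figure D3:**
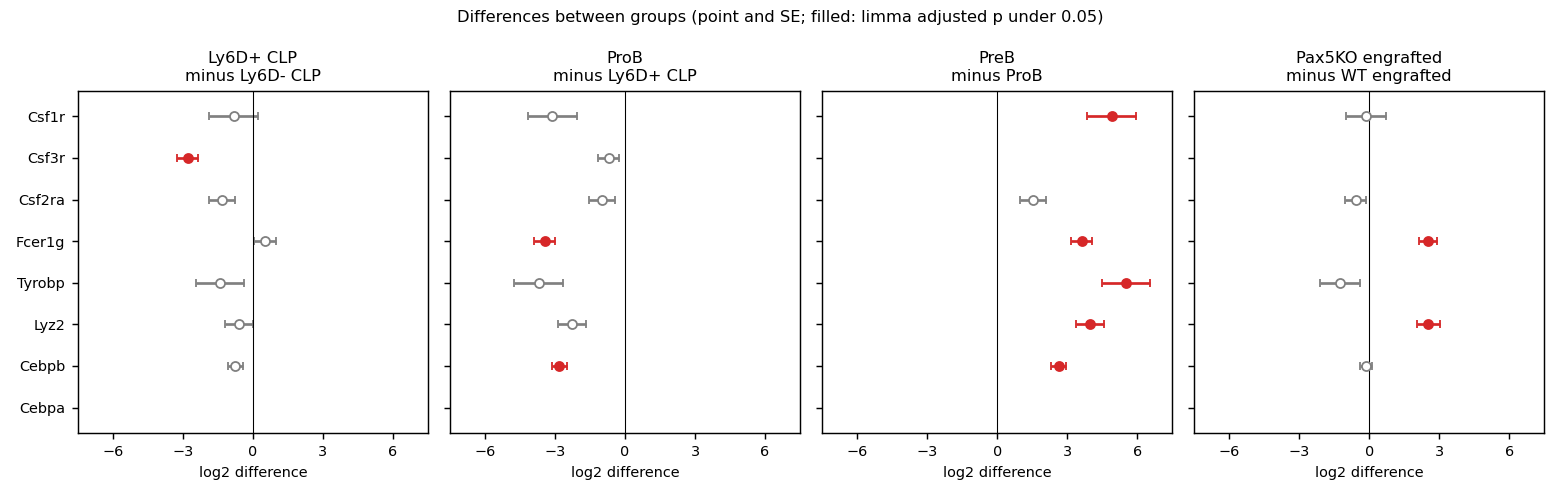
log2 difference of each gene in 4 comparisons; points are differences, bars the limma SE, and filled points have an adjusted p under 0.05, with genes at the floor in both groups left out. Fcer1g and Lyz2 lie at 2.52 between the engrafted groups, and 5 genes lie above 2.6 between PreB and ProB.

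Partners of these receptors and adaptors differed between the engrafted groups as well. Of 10 genes of the colony-stimulating factor and beta common system, 2 rose and 1 fell. Csf2rb2, the beta chain specific for IL-3, read 3.18, 2.82 and 3.78 in WT engrafted and 5.92, 5.62 and 5.44 in Pax5KO engrafted cells, a rise of 2.40 (SE 0.45, limma adjusted p = 0.0152). The shared beta chain Csf2rb read 7.58, 7.05 and 7.00 in WT engrafted cells. It read 8.66, 8.99 and 8.24 in Pax5KO engrafted cells, a rise of 1.42 (SE 0.33, limma adjusted p = 0.0435). Neither gene overlapped between the groups. The IL-5 receptor alpha chain Il5ra fell by at least 1.09 (SE 0.23, limma adjusted p = 0.0267) to the floor. The call of Csf2rb was near the threshold: with the arrays paired by number its adjusted p was 0.0678. Without Pax5KO engrafted array 1 or 2, or any 1 WT engrafted array, it was 0.0629 to 0.153. Csf2rb2 lost its call without Pax5KO engrafted array 1 or 2 or WT engrafted array 1 or 2 (limma adjusted p from 0.0525 to 0.0656), and Il5ra without any 1 Pax5KO engrafted array (0.0712 to 0.0901).

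Of 17 other ITAM adaptors and partner receptors, 2 rose and 0 fell. Trem1, a DAP12-coupled receptor of neutrophils and monocytes, read 3.57, 3.46 and 3.55 in WT engrafted and 8.74, 8.34 and 7.42 in Pax5KO engrafted cells, a rise of 4.64 (SE 0.35, limma adjusted p = 0.000117). Its adaptor gene Tyrobp, as given above, did not rise. Cd247, the zeta adaptor of T and NK cells, read 2.91, 2.43 and 3.16 in WT engrafted cells. It read 6.07, 5.55 and 5.52 in Pax5KO engrafted cells, a rise of 2.88 (SE 0.30, limma adjusted p = 0.000706). Among 9 measured kinases and signalling genes below these receptors, Syk fell by 1.74 (SE 0.22, limma adjusted p = 0.00206) and Plcg2, a phospholipase downstream of Syk, rose by 0.77 (SE 0.16, 0.0264). Plcg2 lost its call without Pax5KO engrafted array 1 or 2 or WT engrafted array 1 or 3 (0.0813 to 0.103).

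On its leading probe set Lyz1 rose by 2.31 (SE 0.47, limma adjusted p = 0.0227), and lost the call without any 1 Pax5KO engrafted array or without WT engrafted array 1 or 2 (0.0549 to 0.0835). Its dimmest set stayed at the floor, as given above. In limma 0 of 3 other C/EBP family genes (Cebpd, Cebpg and Ddit3) passed, and 1 had an unadjusted p under 0.05. Of 10 granule and neutrophil genes that depend on C/EBP factors 0 passed, with 2 under 0.05 unadjusted and a median difference of -0.29. Single genes of this list went either way without a call. Ctsg read 5.21, 5.49 and 7.39 in WT engrafted and 8.49, 8.50 and 8.78 in Pax5KO engrafted cells. Ngp read 3.12, 6.07 and 5.16 in WT engrafted and 2.55, 2.45 and 2.59 in Pax5KO engrafted cells. With the term for Xist, the partner genes Csf2rb, Csf2rb2, Il5ra, Plcg2 and Lyz1 were not called either (limma adjusted p from 0.0897 to 0.340).

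**Figure D4:**
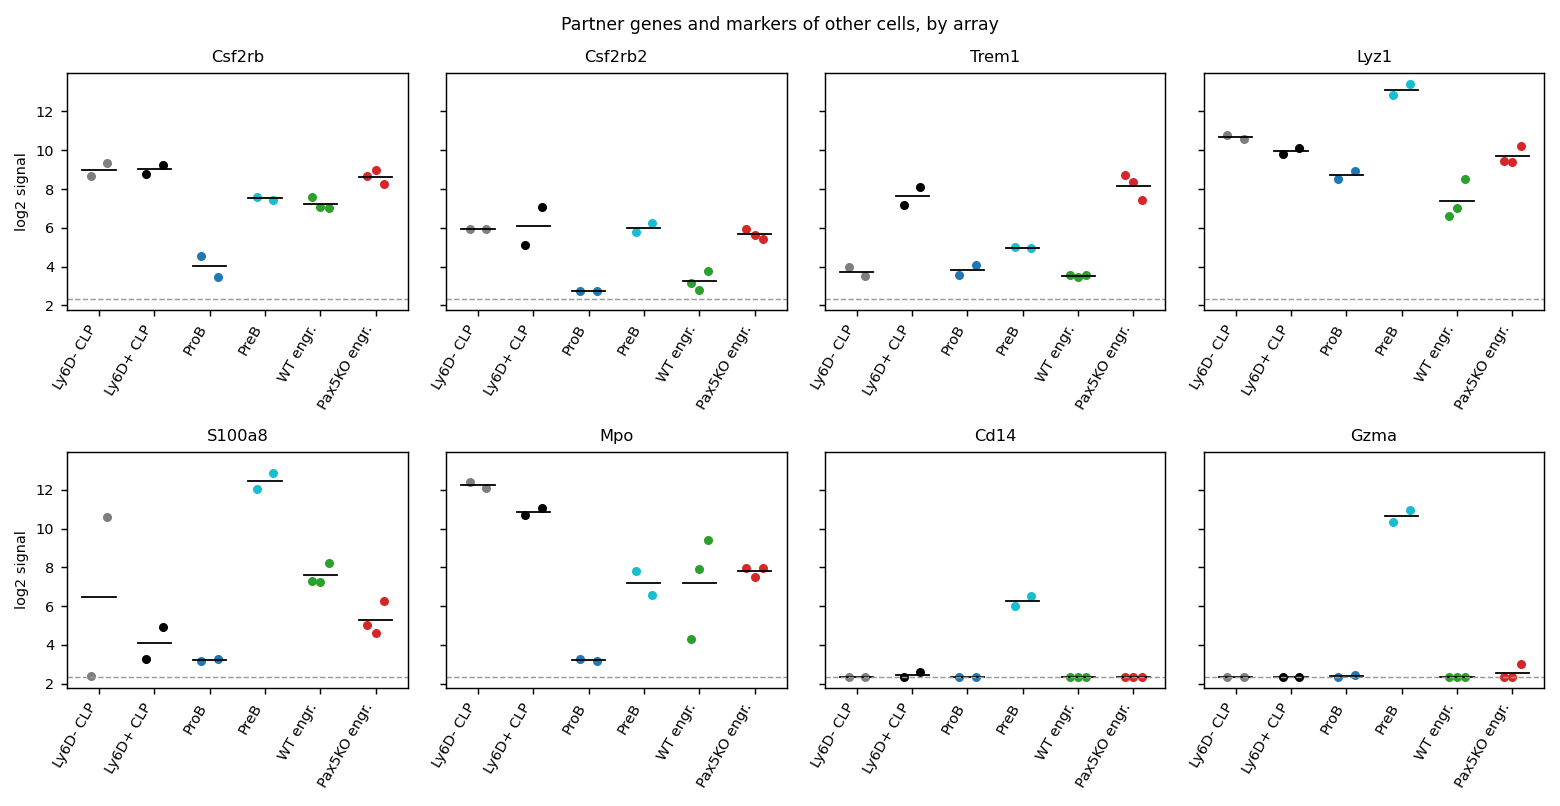
log2 signal of 4 partner genes (Csf2rb, Csf2rb2, Trem1, Lyz1) and 4 genes of other cells (S100a8, Mpo, Cd14, Gzma) on every array, by group; points are arrays, black lines group means and the dashed line the lowest value of the table. Trem1 is high in Ly6D+ CLP and Pax5KO engrafted cells, at 7.19 to 8.74, and S100a8, Cd14 and Gzma are highest in PreB.

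From Ly6D- to Ly6D+ CLP, the step at which CLP turn towards the B lineage, 1 gene of the 8 fell and 0 rose, where 0.638% of all genes fell, 0.813% rose and 1.45% were called in either direction. Csf3r fell by 2.79 (SE 0.45, limma adjusted p = 0.0211), which is 6.90-fold, and did not pass with these groups fitted alone (0.954). The other measurable genes were not called: Tyrobp differed by -1.42 (limma adjusted p = 0.682), Csf2ra by -1.32 (0.466), Csf1r by -0.83 (0.982), Cebpb by -0.76 (0.474), Lyz2 by -0.59 (0.876) and Fcer1g by 0.52 (0.795). The median over the 8 was -0.79 and over all genes 0. Without Ly6D+ CLP array 1, 3 of the 8 were called. They were Csf3r (-1.98), Csf2ra (-2.16, limma adjusted p = 0.0398) and Cebpa, which is at the floor on both sides. Trem1 rose by 3.90 (limma adjusted p = 0.00266), from 3.97 and 3.52 to 7.19 and 8.10, the only call among the 17 adaptors and partner receptors. The neutrophil gene S100a8 stood at 10.6 on Ly6D- CLP array 2, where Csf3r read 6.33, and at 2.39 on array 1, where Csf3r read 5.50.

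From Ly6D+ CLP to ProB, 2 of the 8 fell and 0 rose, where 5.36% of all genes fell, 1.93% rose and 7.29% were called in either direction. Fcer1g fell by 3.44 (SE 0.46, limma adjusted p = 0.00277), which is 10.8-fold. Cebpb fell by at least 2.82 (SE 0.32, limma adjusted p = 0.00140) to the floor, at least 7.08-fold. With these groups fitted alone neither passed (limma adjusted p = 0.162 and 0.159), and Fcer1g did not with array weights (0.0759). Cebpb was not called on its second probe set (-1.06, a lower bound in size, limma adjusted p = 0.412). Tyrobp (-3.70, SE 1.04, limma adjusted p = 0.0735), Lyz2 (-2.28, SE 0.60, 0.0596) and Csf1r (-3.12, SE 1.05, 0.136) had differences of like size and did not pass, as did Csf2ra (-0.98, 0.348) and Csf3r (-0.70, a lower bound in size since ProB was at the floor, 0.429). The median over the 8 was -2.55 and over all genes 0. Tyrobp, Lyz2 and Csf1r did not overlap between the groups, which with 2 arrays on each side carries little weight. Tyrobp and Lyz2 passed when genes at the floor in every group were left out (limma adjusted p = 0.0246 and 0.0222). Ly6D+ CLP arrays 1 and 2 had an actin measure of RNA quality of 3.56 and 5.57, against 2.73 and 3.67 in ProB. The part of RNA quality in this step was not tested. Without Ly6D+ CLP array 1, 4 of the 8 were called, with Csf3r (lower by at least 1.51, limma adjusted p = 0.0164) and the floor gene Cebpa added.

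Partners fell over the same step. The beta chains Csf2rb and Csf2rb2 fell by 4.98 (limma adjusted p = 0.000348) and by at least 3.36 (0.00789), 2 of 10 genes of that system. Cd247 fell by 3.93 (limma adjusted p = 0.000617), Trem1 by 3.84, and the DAP12-coupled receptor Cd300lb by at least 3.65 (0.0217), 3 of 17 adaptors and receptors. Cd300lb lost its call without ProB array 1 (0.0560) or 2 (0.0854) or Ly6D+ CLP array 1 (0.0765). Of 10 myeloid regulators 4 fell and 0 rose. Among the 4, the myeloid and B-cell factor gene Spi1, which encodes PU.1, fell by 2.20 (limma adjusted p = 0.000903). Of 11 granulocyte and monocyte markers only Mpo was called, lower by 7.64 (limma adjusted p = 0.00988), and the median of the 11 was -0.13. The ProB arrays were high in Xist and the CLP arrays were not, so in this comparison and the next, group and Xist status cannot be told apart.

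From ProB to PreB, 5 of the 8 rose and 0 fell, where 6.35% of all genes rose, 5.19% fell and 11.5% were called in either direction. Tyrobp rose by 5.53 (SE 1.04, limma adjusted p = 0.0106), which is 46.2-fold, Csf1r by 4.91 (SE 1.05, 0.0186), Lyz2 by 3.99 (SE 0.60, 0.00381), Fcer1g by 3.62 (SE 0.46, 0.00164) and Cebpb by at least 2.64 (SE 0.32, 0.00136). Each was higher on 2 of 2 PreB arrays than on either ProB array on its leading probe set. The second Cebpb probe set stood at the lowest value of 2.32 on all PreB and ProB arrays. Csf2ra differed by 1.54 (SE 0.55, limma adjusted p = 0.128) on its leading probe set and was called on its second, at 2.89 (0.00300). The median over the 8 was 3.13 and over all genes 0. Tyrobp lost its call without PreB array 3 (5.20, limma adjusted p = 0.0564) or ProB array 2 (5.52, 0.0504). Csf1r lost its call without PreB array 2 (5.17, 0.0583) or 3 (4.64, 0.0879) or ProB array 2 (4.78, 0.0854), and with its 3 probe sets averaged (2.18, 0.0594) or array weights (0.0599). The count of called genes was 3 of 8 without PreB array 3 or ProB array 2. With these groups fitted alone, Fcer1g (limma adjusted p = 0.0776), Lyz2 (0.0573) and Cebpb (0.145) did not pass.

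Markers of granulocytes and NK cells rose over the same step. Of 11 granulocyte and monocyte markers 4 rose, and the log2 of their summed signal went from 6.25 to 6.32 in ProB up to 12.7 to 13.5 in PreB. S100a8 rose by 9.20 (SE 2.10, limma adjusted p = 0.0240), a call lost without any 1 of the 4 arrays (0.0683 to 0.106), and Cd14, the endotoxin co-receptor of monocytes, by at least 3.94 (1.02e-06). The granule gene Ngp rose by at least 8.91 (limma adjusted p = 0.0105), and lost its call without PreB array 3 (at least 8.49, 0.0541). It is 1 of 5 of the 10 C/EBP-dependent granulocyte genes that rose. Of 7 NK markers 5 rose, with Gzma up by at least 8.22 (limma adjusted p = 3.90e-07), and the log2 of their summed signal went from 5.45 to 5.61 in ProB up to 11.0 to 11.5 in PreB. Itgam and Elane did not leave the floor in PreB by more than 0.5 on any array. RNA quality also differed: the actin control signal near the end of the transcript exceeded that near its start by 7.27 and 6.71 in PreB and by 2.73 and 3.67 in ProB. The part of other cells and of RNA quality in the rise of the 5 genes was not tested.

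Partner genes in PreB moved with them. Csf2rb rose by 3.49 (limma adjusted p = 0.00114), Csf2rb2 by at least 3.26 (0.00662) and the M-CSF gene Csf1 by 3.42 (0.00987), 3 of 10 in that system. Csf1 lost its call without PreB array 2 (2.77, 0.0544) and with its probe sets averaged (1.04, 0.0712). Of the 17 adaptors and receptors 4 rose: the lectin receptor Clec4e by at least 4.76, Trem3 by at least 3.19, the Fc receptor Fcgr3 by at least 2.35 (limma adjusted p = 0.0152) and the dendritic cell lectin Siglech by at least 2.03. Fcgr3 lost its call without ProB array 2 (0.0649). In the C/EBP family Ddit3, a stress-induced member, rose by 3.91 (limma adjusted p = 0.00116), 1 of 3 measured. Lyz1 rose by 4.41 (limma adjusted p = 0.00194) on its leading probe set, while its dimmest set stayed at the floor.

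Both engrafted groups can be set beside ProB, with the limit that these 2 comparisons share the ProB arrays and that transplantation is confounded with group in both. Pax5KO engrafted cells exceeded ProB for 1 of the 8 genes, Fcer1g, by 3.45 (SE 0.42, limma adjusted p = 0.00238), which is 10.9-fold (0.0594 with these groups fitted alone), where 4.22% of all genes were higher, 1.02% lower and 5.24% called either way. WT engrafted cells differed from ProB for 0 of the 8 in limma, with 2 under an unadjusted p of 0.05 (Tyrobp and Csf2ra), where 3.63% of all genes were higher, 1.3% lower and 4.93% called either way. Fcer1g then differed by 0.94 (limma adjusted p = 0.298). Tyrobp differed from ProB by 1.87 (limma adjusted p = 0.351) in Pax5KO and 3.12 (0.115) in WT engrafted cells. Lyz2 differed by 1.53 (limma adjusted p = 0.193) and -0.99 (0.399), Csf1r by 1.33 (0.597) and 1.46 (0.523), and Csf2ra by 0.75 (0.548) and 1.32 (0.221), in the same order. Without WT engrafted array 3, Lyz2 was called lower than ProB in WT engrafted cells (-1.61, limma adjusted p = 0.0360). The medians over the 8 were 1.04 and 0.61. Csf2rb exceeded ProB in both groups, by 4.60 and 3.19 (limma adjusted p = 0.000365 and 0.00233). Of 7 measured mast cell and basophil markers, 4 were called higher than ProB in WT engrafted and 1 in Pax5KO engrafted cells. The part of such cells in these differences was not tested.

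Each gene's pattern over the 14 arrays resembled those of a few other genes, described here by Pearson's r with no test. Arrays share processing and group, and 4266 genes with group means spanning at least 2 were searched. Csf1r was most like Ccr9 (0.88), Tnfaip2 (0.88) and Zfand5 (0.87), and Csf3r like Arhgef4, Myl6b (both 0.98) and Ddx4 (0.97). Csf2ra was most like Hlx (0.86), Hk3 (0.83) and Gstm1 (0.81). Fcer1g was most like Slc49a4 (0.92), Ctla2b (0.91) and Csf2rb2 (0.90), and Tyrobp like Evi5 (0.90), Dipk1a (0.88) and Kdm5b (0.86). Lyz2 was most like Lyz1 (0.97), Ccr9 (0.92) and Jdp2 (0.91). Cebpb was most like Cd300lb (0.95), Ctsw (0.95) and Sqor (0.94). Among the 7 genes other than Cebpa, which was at the floor and left out, r was highest for Csf1r with Tyrobp, at 0.83, and lowest for Csf3r with Fcer1g, at 0.21.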

How the data were processed

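The values analysed are the deposited log2 signals of each probe set on each array. RMA, limma and GCRMA are named per the submitters' processing notes, and which of these yielded the values, and in which version, is not given in the sources used here. Medians of arrays ran from 2.41 to 2.52 and their upper quartiles from 5.39 to 5.98, and the values were used as deposited, with no further scaling, filter or detection call. Symbols came from the platform annotation, updated through RefSeq's GRCm38.p6 gene table. Of the probe sets, 34945 had 1 symbol, 932 several and 9160 none here, and 64 were controls; 34741 of the first were matched. The brightest probe set by mean stood for each gene.

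Group means were fitted with limma 3.58.1 in R 4.3.3 (lmFit, eBayes; 8 residual degrees of freedom), two-sided, with Benjamini-Hochberg adjustment over 18193 genes; single probe sets were adjusted over all probe sets with 1 symbol. The fit was tested on simulated data. The number of arrays limits the precision. Samples were grouped by their titles. The PreB arrays, numbered 2 and 3 in titles and 1 and 2 in descriptions, carry their title numbers as names here. The replicate block and the correlations of same-numbered arrays used the description numbers. Deviations of same-numbered engrafted arrays from their group means correlated at 0.14, 0.32 and 0.55. In the 3 steps without transplant r was 0.00, -0.04 and 0.09. The titles number the arrays but do not say that equal numbers belong together, and these values do not settle it. The main fit had no block for the number.

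All 8 genes are named. From the lists of other genes, up to 8 called genes per comparison by size were to be named, with markers of other cells given beside a result; where a list had 5 or fewer calls, further genes were named after their values were seen. The 3 genes most like each member were named where its group means spanned at least 2. Members and lists were chosen with earlier results of these data known. Alternatives tried were other scalings, filters on dim or floor-level genes, averaged or single probe sets, array weights, a mean-variance trend, a replicate block, only the groups compared, a term for Xist and leaving out arrays; leaving out the PreB arrays was added after seeing the data.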

Additional observations from a re-analysis of the deposited data

How the results depend on the processing

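Of the alternatives for the called differences of the 8 genes, 146 kept the call, 23 lost it and 0 reversed. For differences not called, 391 stayed so, 18 gained a call and 6 reversed. Fitting only the 2 groups compared, with few residual degrees of freedom, left 0 of 8 genes called between the engrafted groups, from Ly6D- to Ly6D+ CLP, from Ly6D+ CLP to ProB and for Pax5KO engrafted cells against ProB, and 2 from ProB to PreB. Genes called in all were then 697, 1, 3, 191 and 487, and 100 for WT engrafted cells against ProB. Of the differences named for partner and marker genes, 10 kept their call in these fits and 27 lost it. Without a single array, genes called between the engrafted groups were 676 to 1034 (1080 with all arrays) and the 8 gave 1 to 2 calls. For the Ly6D step they were 694 to 1144 (264) with 1 to 3 of the 8, and for the ProB step 1060 to 2129 (1327) with 2 to 4. From ProB to PreB 3 to 5 of the 8 were called. Against ProB they were 565 to 1883 (953) for Pax5KO engrafted cells, and 489 to 1825 (897) for WT engrafted cells with 0 to 1 of the 8. Where 1 of 2 arrays was left out, the lone array was assumed to vary like the other groups.

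Array weights gave 3065 calls between the engrafted groups, 102 for the Ly6D step and 368 for the ProB step (1 of the 8). Single probe sets gave 414 for the Ly6D step. Equal upper quartiles moved the median of all genes to 0.35 (ProB step), -0.20 (PreB against ProB), -0.43 (Pax5KO engrafted against ProB) and -0.36 (WT engrafted against ProB), with 7239 calls for the ProB step and 8601 and 8142 for Pax5KO and WT engrafted cells against ProB; 4, 2 and 2 of the 8 were then called. The share of calls that were higher went from 26.5% to 84.0% for the ProB step (39.6% with quantile normalization), from 55.0% to 43.8% for PreB (47.1%), from 80.6% to 11.1% (63.2%) and from 73.7% to 11.4% (50.6%) for the engrafted groups against ProB. For the ProB step, 5 of the 8 were called without dim genes and 4 without genes at the floor. For WT engrafted cells against ProB, 1 was called in either case. With a term for Xist, 0 of the 8 were called between the engrafted groups.

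With the replicate block, 1163 genes and 2 of the 8 were called between the engrafted groups, and no call among the 8 changed there (Fcer1g adjusted p = 0.00585 and Lyz2 0.00290 in limma). For the ProB step, where deviations of same-numbered arrays correlated at -0.04, 5 of the 8 were called with the block. The differences that reversed were not called. Csf1r between the engrafted groups was 0.0482 with probe sets averaged and -0.78 to 0.53 without 1 array, and over the Ly6D step -1.95 to 0.30. Csf3r over the ProB step, with ProB at the floor, was -1.51 to 0.11. Cebpb in WT engrafted cells against ProB was -0.0855 with equal upper quartiles. The cause of these shifts was not tested. Signals near the lowest value limit Csf3r, Cebpa and Cebpb, for which a floor hides any smaller difference.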
